A study of Mus musculus with 18 samples.

Results

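The genes described here are 9 genes of the pericentral zone of the liver lobule, Glul, Slc1a2, Lect2, Oat, Rhbg, Axin2, Tbx3, Lgr5 and Cyp1a2. They were taken by gene name from the table of raw read counts, where each of the 9 names matched 1 row of 32285, and they were read in 18 liver libraries. Space pups were F1 mice sired through germline stem (GS) cells, a culture of spermatogonial stem cells from an EGFP transgenic line on the DBA/2 background, which spent 6 months frozen aboard the International Space Station. Ground pups were sired through GS cells that stayed frozen on Earth over that period. After thawing, either kind of cell was injected into testes of W recipients, Kit mutants that make almost no sperm of their own, and these sired the pups with C57BL/6 females. BDF1 mice were the controls, and the labels give the strain B6D2F1 and the genotype wild-type for all 18 animals. The pups were killed at 10 weeks of age. The age of the controls, the litters and the number of GS cell lines and recipients behind the pups are not given in the labels, and the study mentions F1 males and females.

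In the liver lobule blood flows from the portal tracts to the central vein, and hepatocytes express different genes along this path. Wnt ligands and R-spondin released by endothelial cells of the central vein keep the pericentral programme on through beta-catenin and TCF/LEF factors. The hepatocytes next to the vein take up glutamate and ammonium that passed the periportal urea cycle and fix them as glutamine. Tbx3, Axin2 and Lgr5 are read as Wnt-responsive genes of this zone, Glul, Slc1a2, Rhbg and Oat serve its glutamine and ammonia metabolism, Lect2 encodes a secreted hepatokine, and Cyp1a2 encodes a cytochrome P450.

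Each group held 6 libraries, numbered 1 to 6, and the groups were compared within numbers 1 to 3 and within numbers 4 to 6, which gives 3 libraries on each side. Total counts ran from 15407450 to 20562351 per library. Xist, transcribed from the inactive X chromosome, had 0 to 187 counts in the 9 libraries numbered 1 to 3 and 12218 to 21557 counts in the 9 numbered 4 to 6, and the summed counts of 4 Y-linked genes ran from 1822 to 2482 and from 0 to 26, so each replicate set was of 1 Xist class. The labels give no sex per sample. Values are CPM, counts divided by the library size after scaling by its TMM factor, which sets the bulk of genes equal between libraries. These factors were between 1.03 and 1.17 in numbers 1 to 3, between 1.06 and 1.17 in BDF1 4 to 6 and between 0.704 and 0.970 in the pups numbered 4 to 6, where Alb, the albumin gene, took 17.6% to 24.1% of counts against 6.72% to 8.03% in BDF1 4 to 6. The part of this in the results for numbers 4 to 6 was not tested. For Ground pups the member count without the 3 libraries of lowest factor is given beside those results. For Space pups that count is not given. In Space replicate 6 the 8 haploid germ cell genes summed to 877 counts and in BDF1 replicate 3 to 99, against at most 12 in the other libraries. These libraries are of whole liver, so fewer pericentral cells and less RNA per cell cannot be told apart.

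All 9 genes were detected in every library and all 9 passed the filter on low counts, among 13356 genes tested. Lgr5 had the lowest single value, 1.64 CPM in Space replicate 4 from 21 counts. A count of 0 allows up to 3 counts, which was 0.134 to 0.234 CPM in these libraries. Per kilobase of exon, the mean over the 18 libraries was 385 CPM for Cyp1a2, 198 for Oat, 174 for Glul and 90.2 for Lect2. It was 9.64 CPM per kilobase for Slc1a2, 5.36 for Rhbg, 4.52 for Tbx3, 1.13 for Axin2 and 0.436 for Lgr5. The Wnt-responsive regulators were thus the least abundant of the 9 per length and the P450 the most abundant.

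The promoters of these genes were read because several of the genes are known targets of TCF/LEF factors. RefSeq promoter windows on GRCm38.p6, from 250 bases before the start to 50 bases after it, were present for 6 of the 9 genes. The core CTTTGA, or TCAAAG on the other strand, was in 3 of these 6 windows (Slc1a2, Lect2 and Cyp1a2), and in 16.0% of all 32851 windows of 300 bases. These 3 windows are printed, 5′ to 3′ on the gene's strand, with the core in capitals. The Lect2 window is chr13:56548489-56548788 on the minus strand, the Cyp1a2 window chr9:57683606-57683905 on the minus strand, and the Slc1a2 window chr2:102706188-102706487 on the plus strand, which lies inside the gene because RefSeq places a start downstream of the first one in GENCODE.
Lect2: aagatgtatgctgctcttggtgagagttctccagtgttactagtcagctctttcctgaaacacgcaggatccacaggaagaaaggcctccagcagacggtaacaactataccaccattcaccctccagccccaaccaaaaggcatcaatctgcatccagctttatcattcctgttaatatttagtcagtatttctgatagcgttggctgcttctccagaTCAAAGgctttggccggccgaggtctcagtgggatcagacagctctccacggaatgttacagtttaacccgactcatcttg
Cyp1a2: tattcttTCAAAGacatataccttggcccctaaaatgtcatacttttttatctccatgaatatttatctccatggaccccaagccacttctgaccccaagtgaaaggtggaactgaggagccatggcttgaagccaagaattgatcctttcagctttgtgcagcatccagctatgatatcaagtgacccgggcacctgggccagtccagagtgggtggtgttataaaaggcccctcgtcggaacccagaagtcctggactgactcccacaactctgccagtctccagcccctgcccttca
Slc1a2: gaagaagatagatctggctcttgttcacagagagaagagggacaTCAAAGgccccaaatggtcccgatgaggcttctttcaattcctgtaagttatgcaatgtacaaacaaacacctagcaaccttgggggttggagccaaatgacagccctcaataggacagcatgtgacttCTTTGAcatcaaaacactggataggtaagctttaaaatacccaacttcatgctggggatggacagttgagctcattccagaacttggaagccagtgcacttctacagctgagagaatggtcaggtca
In Lect2 the core begins 31 bases before the start, in Cyp1a2 243 bases before it, and in Slc1a2 the 2 matches begin 206 and 77 bases before it. The longer core CTTTGAT, or ATCAAAG, was in 2 of the 6 windows, those of Slc1a2 and Lect2, and in 3.7% of all windows. The core GCGTG, or CACGC, of the aryl hydrocarbon receptor, which is known to induce Cyp1a2, was in 32.4% of all windows and among the 6 windows it was in that of Lect2. The windows of Glul, Oat and Axin2 held neither 6-letter core nor the 5-letter core. A match says only that these letters are in the window.

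The main question for these genes was whether livers of pups from frozen GS cells differed from livers of BDF1 mice. Tbx3 and Axin2 were lower in Space pups of numbers 1 to 3, and Tbx3 was lower in Ground pups of that set. Among numbers 4 to 6, Lect2 and Cyp1a2 were lower and Tbx3 was higher in the pups of either kind, and Oat and Lgr5 were also lower in Ground pups. Glul, Slc1a2 and Rhbg passed the edgeR test with all libraries in none of these 4 comparisons. A gene was called at an adjusted p under 0.05 in edgeR's quasi-likelihood test, with p-values adjusted over all genes tested. By that rule 2 of 9 genes were called between Space pups and BDF1 in numbers 1 to 3, where 4.64% of all genes tested were called, and 1 of 9 between Ground pups and BDF1, where 1.92% were called. The counts in numbers 4 to 6 were 3 of 9 for Space pups against 11.9% of all genes, and 5 of 9 for Ground pups against 15.2%. The 9 genes were chosen with earlier results of these data known, so a count above the share of all genes is not a test of them. Both pup groups were compared with the same BDF1 libraries, so the Space and Ground results are not independent of each other. Without Space replicate 4 and Ground replicates 5 and 6, the libraries of lowest TMM factor, Ground pups of numbers 4 to 6 are a single pup assumed to vary like the other groups. In that fit 2 of 9 genes were called against 7.56% of all genes, Lect2 (-1.49, adjusted p = 0.00317) and Glul (-0.66, adjusted p = 0.0457), which was not called with all libraries. Lgr5, at -1.22 with an adjusted p of 0.161, was not called there, nor were Tbx3, Oat and Cyp1a2. The ranges of pups and BDF1 mice did not overlap for 3 of 9 genes in Space and 4 of 9 in Ground pups of numbers 1 to 3, against 35.2% and 23.9% of all genes. For numbers 4 to 6 it was 4 of 9 and 5 of 9, against 31.5% and 30%.

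The median log2 fold change of the 9 genes was -0.26 for Space pups and -0.39 for Ground pups in numbers 1 to 3, and -0.31 and -0.38 in numbers 4 to 6. Over all genes tested the median was between -0.00 and 0.01 in these 4 comparisons. When libraries were scaled by total counts the median of all genes moved by -0.40 for Space pups and by -0.47 for Ground pups in numbers 4 to 6, and the share of called genes that were higher in the pups went from 53.9% to 6.77% and from 51.7% to 6.55%. For numbers 1 to 3 the median moved by -0.13 for Space pups, and that share went from 61.3% to 39.8%. No called member changed its direction under that scaling. Over all comparisons of groups and of sets and the interactions, 28 calls of a member held under it and 6 were lost.

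**Figure D1:**
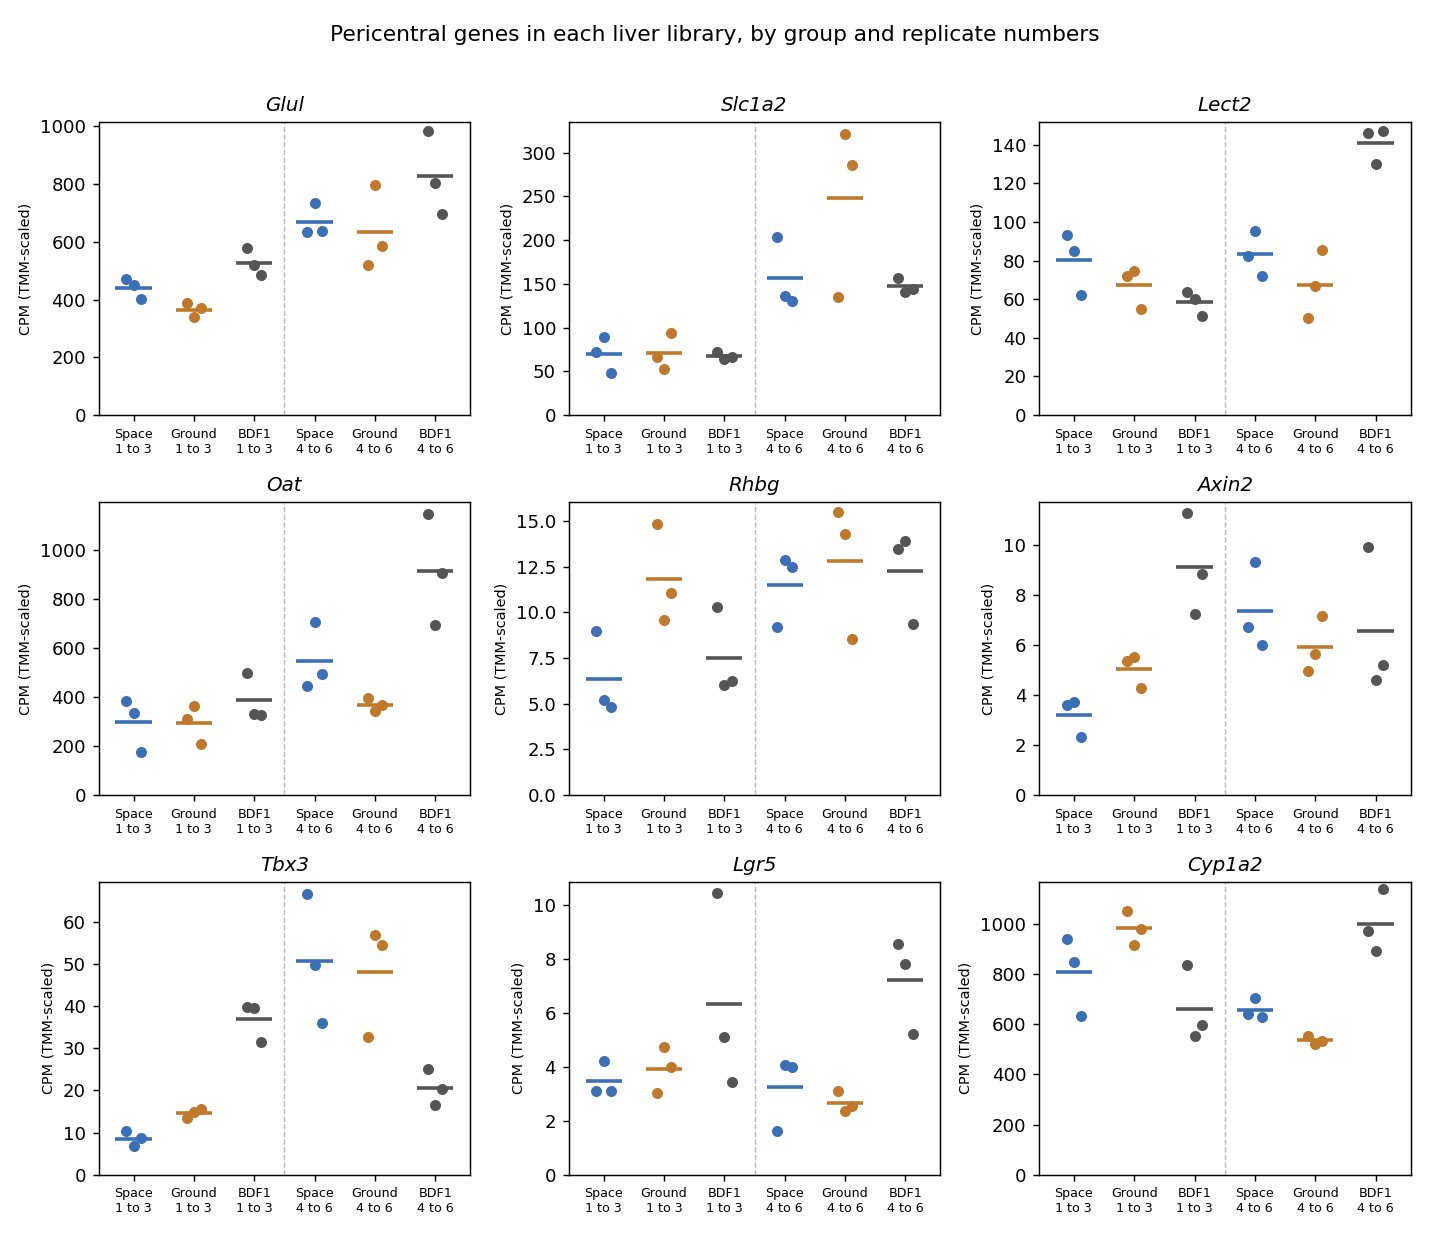
CPM of each of the 9 pericentral genes in every library (points) with the mean of 3 libraries (bars), by group and replicate numbers, on linear axes from 0. Tbx3 in BDF1 mice lies above both pup groups in numbers 1 to 3, at 31.5 to 39.8 CPM, and below them in numbers 4 to 6, at 16.6 to 25.0 CPM.

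Tbx3, a T-box transcription repressor, was the 1 gene of the 9 called in all 4 comparisons of pups with BDF1 mice. It is listed as ENSMUSG00000018604 at chr5:119670669-119684724 on the plus strand (mm10, GENCODE M21), and 115 of its exon bases overlap the antisense gene Tbx3os1, which had at most 171 counts in a library. Tbx3 in numbers 1 to 3 was at 10.3, 6.73 and 8.76 CPM in Space pups, at 13.5, 14.97 and 15.6 CPM in Ground pups and at 39.8, 39.6 and 31.5 CPM in BDF1 mice. The 3 groups did not overlap in this set, and the BDF1 mice were the highest. Space pups were 4.3-fold below BDF1 mice, a log2 fold change of -2.10 ± 0.24 (SE, 3 against 3) with an adjusted p of 0.000199. Ground pups were 2.52-fold below, at -1.33 ± 0.23 with an adjusted p of 0.00955. Without BDF1 replicate 2 the adjusted p for Ground pups was 0.059.

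Tbx3 in numbers 4 to 6 was at 66.5, 49.6 and 35.9 CPM in Space pups, at 32.6, 56.8 and 54.5 CPM in Ground pups and at 25.0, 16.6 and 20.3 CPM in BDF1 mice. Here each pup lay above each BDF1 mouse, and the pup groups overlapped each other. Space pups were 2.45-fold above BDF1 mice (log2 fold change 1.29 ± 0.23, adjusted p = 0.00281) and Ground pups 2.32-fold above (1.22 ± 0.23, adjusted p = 0.00287). Without the 3 libraries of lowest TMM factor the Ground value rested on 1 pup and was 0.67 with an adjusted p of 0.0975.

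Axin2, the scaffold that feeds back on beta-catenin and is itself induced by it, moved in numbers 1 to 3. It is listed as ENSMUSG00000000142 at chr11:108920349-108950783 on the plus strand. Space pups were at 3.59, 3.71 and 2.31 CPM, Ground pups at 5.36, 5.54 and 4.27 CPM and BDF1 mice at 11.3, 7.24 and 8.82 CPM. The groups lay in that order with no overlap. Space pups were 2.86-fold below BDF1 mice, a log2 fold change of -1.51 ± 0.29 with an adjusted p of 0.0081, which became 0.0521 without Space replicate 3. The Ground value of -0.85 ± 0.28 had an adjusted p of 0.131, which was 0.0461 with that set fitted alone. Axin2 in numbers 4 to 6 was at 6.71, 9.33 and 6.01 CPM in Space pups, 4.96, 5.66 and 7.18 CPM in Ground pups and 9.94, 4.61 and 5.19 CPM in BDF1 mice, and the 3 groups overlapped. The log2 fold changes there were 0.16 (95% interval -0.42 to 0.75) for Space pups and -0.15 (-0.74 to 0.44) for Ground pups.

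Lgr5, a receptor for R-spondins, was the least abundant of the 9 genes and had the widest intervals among them. It is listed as ENSMUSG00000020140 at chr10:115450311-115587780 on the minus strand. Lgr5 in numbers 4 to 6 was at 1.64, 4.09 and 3.99 CPM in Space pups, 3.09, 2.37 and 2.55 CPM in Ground pups and 8.56, 7.83 and 5.24 CPM in BDF1 mice. Each pup lay below each BDF1 mouse. Ground pups were 2.69-fold below BDF1 mice, at -1.43 ± 0.37 with an adjusted p of 0.0175. That call was lost without Ground replicate 5 or 6 and without BDF1 replicate 4 or 5, with adjusted p of 0.0584, 0.0559, 0.0608 and 0.0589. The Space value was -1.13 ± 0.37 with an adjusted p of 0.0534, and it was called by DESeq2 (0.0215), with total counts (-1.52, 0.0101), with no filter (0.0337), without Space replicate 6 and BDF1 replicate 3 (0.0444) and without BDF1 replicate 1, 3 or 6 (0.0267, 0.0399 and 0.0453). Lgr5 in numbers 1 to 3 was at 3.12, 4.21 and 3.12 CPM in Space pups, 3.02, 4.75 and 4.01 CPM in Ground pups and 10.4, 5.10 and 3.44 CPM in BDF1 mice. BDF1 replicate 1 alone was high in this set, the groups overlapped, and neither difference passed the test.

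Glul encodes glutamine synthetase, which joins ammonium to glutamate and marks the innermost ring of pericentral hepatocytes. It is listed as ENSMUSG00000026473 at chr1:153899944-153909723 on the plus strand. Glul in numbers 1 to 3 was at 469.9, 452 and 403 CPM in Space pups, 387, 341 and 369 CPM in Ground pups and 579, 521 and 486 CPM in BDF1 mice. The 3 groups did not overlap, with BDF1 mice highest and Ground pups lowest, yet the differences were modest. The log2 fold change against BDF1 was -0.26 (95% interval -0.59 to 0.07, adjusted p = 0.395) in Space pups and -0.53 (-0.87 to -0.20, adjusted p = 0.096) in Ground pups. For numbers 4 to 6 the values were 635, 735 and 638 CPM in Space pups, 521, 799 and 587 CPM in Ground pups and 983, 803 and 697 CPM in BDF1 mice, and the groups overlapped. The log2 fold changes there were -0.31 (-0.64 to 0.03) and -0.38 (-0.71 to -0.05), with adjusted p of 0.209 and 0.114. All 4 values were below 0 and none passed the edgeR test with all libraries. For Ground pups of numbers 1 to 3 Glul was called by DESeq2 (adjusted p = 0.0282), by limma voom (0.0229), with that set fitted alone (0.0194) and without Ground replicate 5 (0.0497). For Ground pups of numbers 4 to 6 it was called without Ground replicate 5, at -0.58 with an adjusted p of 0.0235. Scaling by total counts also called it in Space (-0.71) and Ground pups (-0.88) of that set.

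Slc1a2 encodes a high-affinity glutamate transporter and Rhbg an ammonium transporter, and neither was called against BDF1 by edgeR with all libraries. Slc1a2 (ENSMUSG00000005089) is at chr2:102658659-102790784 on the plus strand. Slc1a2 in numbers 1 to 3 was at 72.2, 89.2 and 48.0 CPM in Space pups, 66.4, 52.3 and 93.9 CPM in Ground pups and 72.6, 63.9 and 66.6 CPM in BDF1 mice, with the BDF1 values inside the range of the pups. Slc1a2 in numbers 4 to 6 was at 204, 136 and 131 CPM in Space pups, 135, 321 and 286 CPM in Ground pups and 156, 141 and 144 CPM in BDF1 mice. Ground replicates 5 and 6 were high and Ground replicate 4 was not. The Ground value of 0.75 (95% interval 0.15 to 1.35) had an adjusted p of 0.0849, which became 0.00866 at a log2 fold change of 1.05 without Ground replicate 4 and was 0.04996 by DESeq2. Rhbg (ENSMUSG00000104445) is at chr3:88242874-88254709 on the minus strand and ran from 4.84 to 15.5 CPM over the 18 libraries. Its value is uncertain, since 1190 of its exon bases (61.4%) are shared on the same strand with the gene model Gm38392. The log2 fold changes of Rhbg against BDF1 lay between -0.25 and 0.65 in the 4 comparisons. In Ground pups of numbers 1 to 3 limma voom called Rhbg, at 0.90 with an adjusted p of 0.0278.

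Oat encodes ornithine aminotransferase, which turns ornithine into a precursor of glutamate. Oat is listed as ENSMUSG00000030934 at chr7:132557478-132576398 on the minus strand. Oat in numbers 4 to 6 was at 445, 706 and 494 CPM in Space pups, at 397, 343 and 366 CPM in Ground pups and at 1147, 693 and 904 CPM in BDF1 mice. Ground pups lay below both other groups, and the Space and BDF1 ranges overlapped. Ground pups were 2.48-fold below BDF1 mice, at -1.31 ± 0.28 with an adjusted p of 0.00613. With Ground replicate 4 as the single Ground pup, without the 3 libraries of lowest TMM factor, the value was -1.20 with an adjusted p of 0.106. The Space value was -0.74 ± 0.28 with an adjusted p of 0.0922, and it was called by DESeq2 (-0.74, 0.0486) and with total counts (-1.12, 0.0104). Oat in numbers 1 to 3 was at 382, 333 and 176 CPM in Space pups, 309, 363 and 209.8 CPM in Ground pups and 498, 332 and 327 CPM in BDF1 mice. Replicate 3 was the lowest in each group, the groups overlapped, and the log2 fold changes of -0.38 and -0.39 did not pass the test.

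Lect2, the hepatokine whose promoter holds the core closest to the start, was lower in the pups of numbers 4 to 6. Lect2 is listed as ENSMUSG00000021539 at chr13:56542464-56548502 on the minus strand. In that set Space pups were at 82.5, 95.1 and 72.0 CPM, Ground pups at 50.2, 66.6 and 85.3 CPM and BDF1 mice at 146, 129.97 and 147 CPM. The BDF1 mice formed a narrow high group that no pup reached. Space pups were 1.69-fold below (log2 fold change -0.76 ± 0.19, adjusted p = 0.0159) and Ground pups 2.09-fold below (-1.07 ± 0.19, adjusted p = 0.00163). Without BDF1 replicate 4 the adjusted p for Space pups was 0.053. The BDF1 mice of numbers 1 to 3 had instead the lowest mean of the 3 groups. Space pups of that set were at 93.2, 84.7 and 62.3 CPM, Ground pups at 72.0, 74.8 and 55.1 CPM and BDF1 mice at 63.7, 60.2 and 51.4 CPM. The groups overlapped, and the log2 fold changes of 0.45 and 0.20 did not pass the test, with adjusted p of 0.184 and 0.637. For Space pups limma voom called Lect2 higher (0.48, adjusted p = 0.0277).

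Cyp1a2, a P450 of drug and xenobiotic metabolism, was likewise lower in the pups of numbers 4 to 6. It is listed as ENSMUSG00000032310 at chr9:57676937-57683703 on the minus strand. Space pups were at 642, 706 and 628 CPM, Ground pups at 554, 522 and 535 CPM and BDF1 mice at 974, 891 and 1138 CPM. The 3 groups did not overlap. Space pups were 1.52-fold below BDF1 mice, at -0.60 ± 0.17 with an adjusted p of 0.0274. Ground pups were 1.86-fold below, at -0.90 ± 0.17 with an adjusted p of 0.00251, and with Ground replicate 4 as the single Ground pup the value was -0.85 with an adjusted p of 0.0529. The Space call was lost without Space replicate 4 or 6 and without BDF1 replicate 4 or 6, with adjusted p of 0.0807, 0.0635, 0.0648 and 0.085. Cyp1a2 in numbers 1 to 3 was at 940.0, 847 and 633 CPM in Space pups, 1053, 916 and 979 CPM in Ground pups and 836, 554 and 598 CPM in BDF1 mice. Ground pups lay above each BDF1 mouse there, with a log2 fold change of 0.57 (95% interval 0.22 to 0.92) and an adjusted p of 0.0899. DESeq2 (0.0166) and limma voom (0.0101) called this difference, as did edgeR without BDF1 replicate 1 (0.77, adjusted p = 0.0382).

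**Figure D2:**
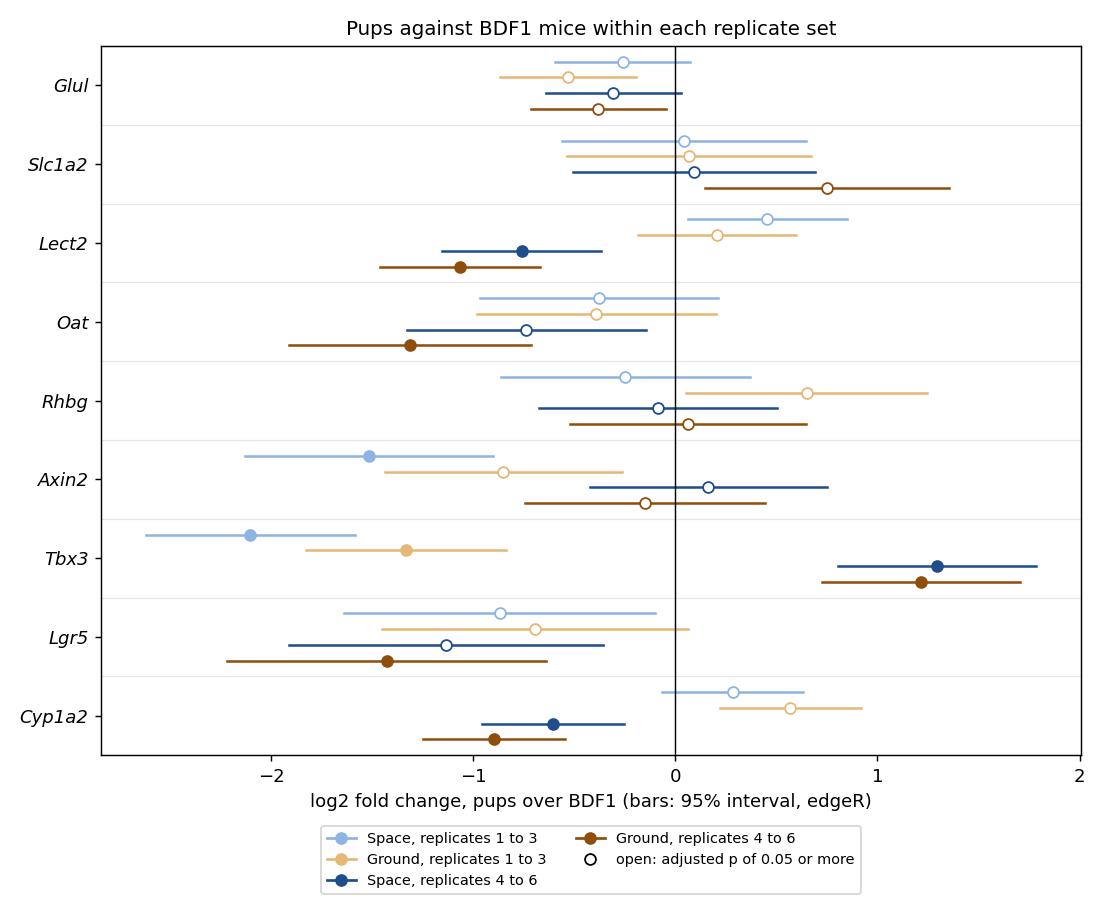
Log2 fold change of each pericentral gene in pups over BDF1 mice (x axis), with 95% intervals from edgeR, for Space and Ground pups in numbers 1 to 3 (light) and 4 to 6 (dark). Filled points were called at an adjusted p under 0.05. Tbx3 is at -2.10 and -1.33 in numbers 1 to 3 and at 1.29 and 1.22 in numbers 4 to 6, and Glul is below 0 with open points in all 4.

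The replicate sets also differed within each group, and the 9 genes were read for that contrast. Glul and Slc1a2 were higher in numbers 4 to 6 than in numbers 1 to 3 in each of the 3 groups. Glul was higher by 0.60 on the log2 scale in Space pups, 0.80 in Ground pups and 0.65 in BDF1 mice, with adjusted p of 0.0126, 0.00216 and 0.0119. Slc1a2 was higher by 1.17, 1.80 and 1.12, with adjusted p of 0.00854, 0.000399 and 0.0157. Tbx3 went opposite ways, higher in numbers 4 to 6 by 2.56 in Space pups and 1.71 in Ground pups, while in BDF1 mice it fell by 0.84 (adjusted p = 0.0214).

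Space pups in numbers 4 to 6 also had more Oat (0.89), Rhbg (0.86) and Axin2 (1.20), and Ground pups had less Cyp1a2 (-0.87). BDF1 mice in numbers 4 to 6 had more Lect2 (1.27), Oat (1.25) and Cyp1a2 (0.60). In all, 6 of 9 genes were called in Space pups and 4 of 9 in Ground pups, where 21.9% and 18.3% of all genes were called. In BDF1 mice 6 of 9 were called, where 14.6% of all genes were. Most of the calls in Space pups and in BDF1 mice were lost with replicate number as a block. Most of those in BDF1 mice were also lost without the libraries with the most haploid germ cell counts. These counts are in the closing section. Lect2 rose in BDF1 mice and edgeR with TMM factors did not call it in the pups, while with total counts it was called lower in Ground pups (-0.46, adjusted p = 0.0293). Its mean was 58.4 ± 6.34 CPM (SD, n = 3) in BDF1 1 to 3 and 141 ± 9.51 CPM in BDF1 4 to 6, against 80.1 ± 16.0 and 83.2 ± 11.5 CPM in Space pups and 67.3 ± 10.6 and 67.3 ± 17.6 CPM in Ground pups. Some calls rested on single libraries. With each of the 18 libraries left out in turn, Rhbg in Space pups missed the threshold in 8 fits, with adjusted p of up to 0.157. In Space pups Oat was lost without replicate 2, 3 or 5 (up to 0.151) and Glul without replicate 3 or 5 (up to 0.0574). In BDF1 mice Glul was lost without replicate 3 or 4 (up to 0.0662) and Slc1a2 without replicate 2 or 3 (up to 0.0592). In BDF1 mice Tbx3 was lost without replicate 1, 2, 5 or 6 (up to 0.0986) and Cyp1a2 without replicate 2, 3 or 6 (up to 0.112). In Space pups 3 of 9 genes were called without replicate 3 or without replicate 5, where 16% and 15.3% of all genes were called, and in BDF1 mice 3 of 9 without replicate 2 or without replicate 3, where 10.4% and 8.41% were. Other settings added calls, with Cyp1a2 lower in Space pups with total counts (-0.59, adjusted p = 0.0271), Rhbg higher in BDF1 mice by limma voom (0.87, 0.00954) and Axin2 lower in BDF1 mice without replicate 4 (-0.90, 0.0339). Scaling by total counts moved the median of all genes by -0.30 in Space and -0.43 in Ground pups, and the share of called genes that were higher in numbers 4 to 6 went from 52.7% to 17.0% and from 52.4% to 10.1%.

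**Figure D3:**
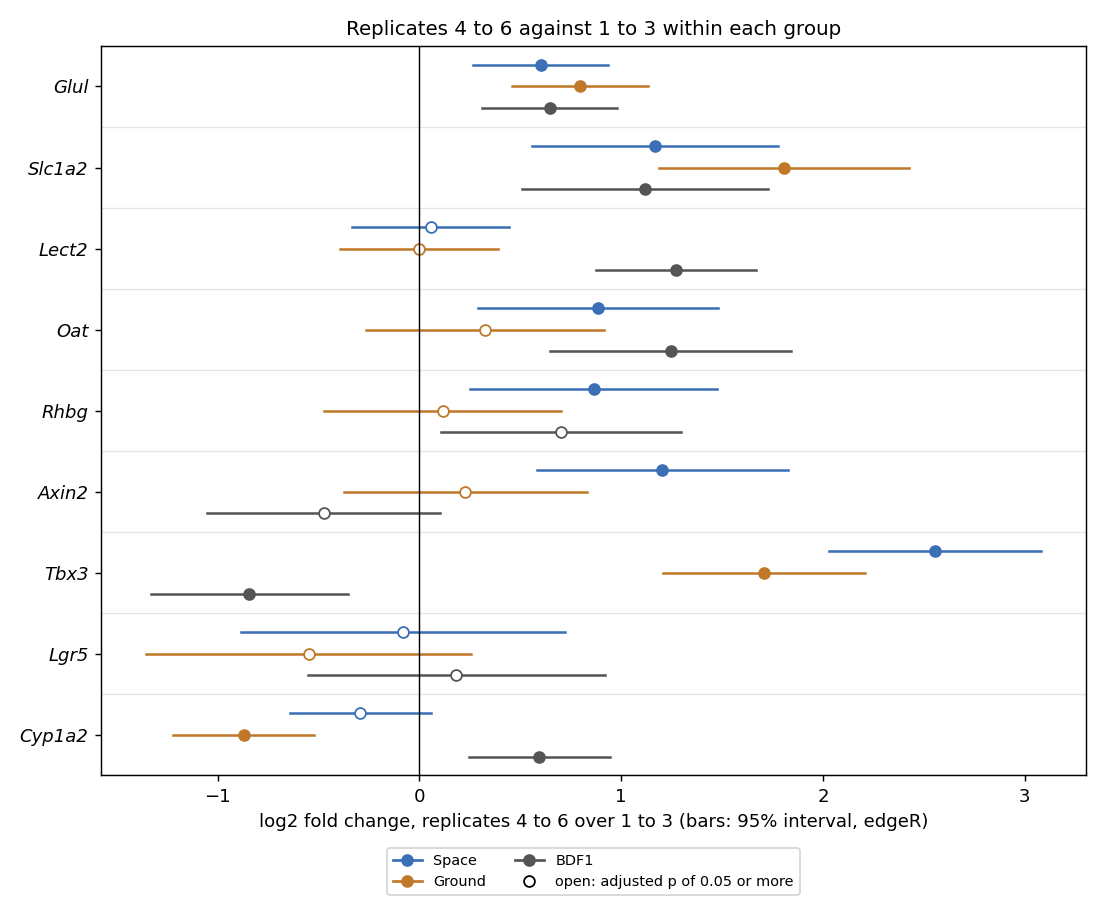
Log2 fold change of each pericentral gene in numbers 4 to 6 over numbers 1 to 3 (x axis), with 95% intervals from edgeR, within Space pups, Ground pups and BDF1 mice. Filled points were called at an adjusted p under 0.05. Glul and Slc1a2 are above 0 in all 3 groups, and Tbx3 is above 0 in both pup groups and at -0.84 in BDF1 mice.

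Whether the difference between pups and BDF1 mice itself changed between the replicate sets was tested as an interaction, numbers 4 to 6 less numbers 1 to 3. For Space pups 4 of 9 genes were called, with 3.19% of all genes called, and for Ground pups 3 of 9, with 2.74% called. Scaling by total counts took the share of called genes with a positive value from 55.6% to 18.6% and from 48.9% to 7.4%. Tbx3 had the largest of these differences, 3.40 ± 0.34 on the log2 scale for Space pups (adjusted p = 0.000122) and 2.55 ± 0.33 for Ground pups (adjusted p = 0.00248), and it was called in all 18 fits that each left out 1 library. Lect2 was at -1.22 ± 0.26 (adjusted p = 0.018) for Space pups and -1.27 ± 0.26 (adjusted p = 0.0174) for Ground pups. Its call was lost without Space replicate 1 or BDF1 replicate 3 for Space pups (adjusted p of 0.0559 and 0.0545), and without BDF1 replicate 3 or 6 for Ground pups (0.0556 and 0.0508).

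Cyp1a2 was at -1.47 ± 0.23 for Ground pups (adjusted p = 0.00521), called in each of the 18 fits. Its Space value of -0.89 ± 0.23 had an adjusted p of 0.0484 and was called in 4 of those fits, with adjusted p of up to 0.13 in the other 14. Axin2 was at 1.68 ± 0.40 for Space pups (adjusted p = 0.0313), and 8 of the 18 fits lost it with adjusted p of up to 0.0881. Without Space replicate 6 and BDF1 replicate 3, the 2 libraries with the most counts of haploid germ cell genes, Tbx3 was the 1 gene of the 9 called for Space pups. Oat had an interaction of -0.92 for Ground pups that did not pass the test (adjusted p = 0.235).

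Space and Ground pups differ in where the GS cells were frozen, so this comparison bears on storage in space. None of the 9 genes was called in numbers 1 to 3, where 0.00749% of all genes (1 gene) were called by edgeR, nor in numbers 4 to 6, where 0.0225% (3 genes) were. DESeq2 called 0 of the 9 as well. In edgeR the members with an unadjusted p under 0.05 were Rhbg, Tbx3 and Axin2 in numbers 1 to 3. Of all 13356 genes tested, 1292 had such a p there. In numbers 4 to 6 the member was Slc1a2, where 1852 of all genes had such a p. The ranges in numbers 1 to 3 of Space and Ground pups did not overlap for 4 of 9 genes, Glul, Rhbg, Axin2 and Tbx3, against 16.6% of all genes. Tbx3 had a log2 fold change of -0.77 (95% interval -1.29 to -0.25, adjusted p = 0.345), Rhbg -0.90 (-1.50 to -0.29, adjusted p = 0.345), Axin2 -0.66 (-1.29 to -0.04, adjusted p = 0.495) and Glul 0.27 (-0.06 to 0.61, adjusted p = 0.606). With limma voom and quality weights Rhbg alone was called, at -1.08 with an adjusted p of 0.0289. For numbers 4 to 6 the ranges did not overlap for 2 of 9 genes, against 13.7% of all genes. These were Oat, at 0.57 (-0.02 to 1.16), and Cyp1a2, at 0.29 (-0.06 to 0.64), both higher in Space pups. Slc1a2 was at -0.66 (-1.26 to -0.06) with an adjusted p of 0.32. In the interaction of this contrast with the replicate set 0 of 9 genes were called and 0% of all genes by edgeR, where 1038 genes had an unadjusted p under 0.05, among them Axin2, Tbx3 and Cyp1a2. DESeq2 and limma voom called 0 of the 9 there as well.

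The other genes of the zone were read from a list of 13 pericentral hepatocyte genes. Of the 13, 1 was called in Space pups and 0 in Ground pups of numbers 1 to 3, and 4 in each kind of pup of numbers 4 to 6, where the shares of all genes called were 4.64%, 1.92%, 11.9% and 15.2%. These 4 shares are also the background of the lists that follow. Cyp7a1, the rate-limiting enzyme of bile acid synthesis, was at 22.5, 23.3 and 64.9 CPM, lowest to highest, in Space pups 4 to 6 and at 141 to 244 CPM in BDF1 4 to 6, a log2 fold change of -2.34 ± 0.49 (adjusted p = 0.00687). Slc13a3, a transporter of dicarboxylates, was lower by -1.29 in Space and -0.87 in Ground pups of that set. Nr1i3, the nuclear receptor CAR, was higher by 1.04 and 1.22, and Cyp2c29 was lower by -1.04 in Ground pups. The others called were Rgn (0.87, Space pups 1 to 3) and Cyp2e1 (-0.61 and -0.67 in Space and Ground pups 4 to 6), named after their values were seen. The list medians lay between -0.14 and 0.00 in these 4 comparisons. With total counts as the scaling, 6 and 11 of the 13 were called in numbers 4 to 6, where 37.3% and 45.9% of all genes were called.

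Among 8 tested Wnt feedback and target genes, 1 was called in Space pups 1 to 3 and 0 in Ground pups 1 to 3. In numbers 4 to 6 it was 1 in Space pups and 2 in Ground pups. The shares of all genes called were 4.64%, 1.92%, 11.9% and 15.2%, in that order. The 12.5% called in Space pups 4 to 6 was near the share of all genes. Rnf43, a ubiquitin ligase that removes Wnt receptors and is itself Wnt-induced, was at 7.94 ± 2.40 CPM in Space pups 1 to 3 and 19.6 ± 3.99 CPM in BDF1 1 to 3 (SD, n = 3), a log2 fold change of -1.30 ± 0.20 (adjusted p = 0.00189), beside Axin2 in the same comparison. The interaction with the replicate set was 1.43 for Rnf43 in Space pups (adjusted p = 0.00998). Tcf7, a TCF/LEF factor, was higher by 0.77 and 1.03 in Space and Ground pups 4 to 6. Nkd1, a Wnt antagonist, was lower by -0.63 in Ground pups 4 to 6. Without the 3 libraries of lowest TMM factor Tcf7 was at 0.79 and 0.83 and Nkd1 at -0.42. Of 20 tested ligands, receptors and transducers, 2, 0, 2 and 1 were called in the same order, against 4.64%, 1.92%, 11.9% and 15.2% of all genes, so the counts in numbers 4 to 6 were no larger than the background. The Wnt receptors Fzd7 (-0.86) and Fzd4 (-0.81) were lower in Space pups 1 to 3. Dvl1, which relays the signal from the receptors, was higher by 0.43 and 0.41 in Space and Ground pups 4 to 6, and Ctnnb1, beta-catenin itself, was lower by -0.35 in Space pups 4 to 6.

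Genes of glutamine, glutamate and ammonia metabolism were tested for 12 of 13 listed. Slc38a2, a neutral amino acid transporter, was higher by 1.58 in Space and 1.16 in Ground pups of numbers 1 to 3, 1 called of 12 in each. Among numbers 4 to 6, 2 of 12 were lower in Space pups and 6 of 12 in Ground pups, against 11.9% and 15.2% of all genes called. Prodh, the first enzyme of proline breakdown, was at 44.3, 109 and 139 CPM, lowest to highest, in Ground pups 4 to 6 and at 259, 313 and 329 CPM in BDF1 4 to 6, a log2 fold change of -1.62 ± 0.34 (adjusted p = 0.00543). Slc38a4, an amino acid transporter (-1.57), and Gls2, the liver glutaminase (-1.20), were also lower. Ground replicates 4, 5 and 6 were at 829, 179 and 366 CPM for Slc38a4 and at 406, 149.98 and 283 CPM for Gls2. Replicates 5 and 6, which are among the libraries of lowest TMM factor, were thus the lowest Ground pups. Space replicate 4, the other such library, was at 277 CPM for Slc38a4 and 244 for Gls2. Space replicates 5 and 6 were at 783 and 827 CPM for Slc38a4 and at 545 and 446 CPM for Gls2. Without those libraries, with replicate 4 as the single Ground pup, Slc38a4 was at -0.71 (adjusted p = 0.0101), Gls2 at -0.65 (0.0589) and Prodh at -1.11 (0.0149), and 4 of the 12 genes were called against 7.56% of all genes in that fit. The others called were Aldh4a1 (-0.62 and -0.70 in Space and Ground pups) and Slc25a15 (-0.61 and -0.79), with Got1 (-0.998) in Ground pups, named after their values were seen. The median of the list was -0.42 in Space and -0.58 in Ground pups 4 to 6, against 0.14 and -0.01 in numbers 1 to 3. With total counts as the scaling, 10 and 9 of the 12 were called in numbers 4 to 6, against 37.3% and 45.9% of all genes.

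Of 7 tested genes of the aryl hydrocarbon receptor pathway, 0 were called in numbers 1 to 3. In numbers 4 to 6 it was 1 (14.3%) in each kind of pup, near the 11.9% and 15.2% of all genes called. This was Tiparp, higher by 1.01 in Space and 0.90 in Ground pups. Without the 3 libraries of lowest TMM factor its values were 0.72 and 0.68. The 14 periportal hepatocyte genes, which mark the opposite end of the lobule, had 1 call in each of 3 comparisons and 4 in Ground pups 4 to 6, against 4.64%, 1.92%, 11.9% and 15.2% of all genes. Ctsc (-1.10 in Space pups and -1.06 in Ground pups, named after its values were seen) was the call in numbers 1 to 3. Cdh1, E-cadherin, was lower by -1.65 in Space and -1.68 in Ground pups 4 to 6. Sds (-1.33), Ass1 (-1.18) and Hal (-1.17), enzymes of serine, urea and histidine metabolism, were lower in Ground pups 4 to 6. The list median was 0.34 and 0.16 in numbers 1 to 3 and -0.34 and -0.41 in numbers 4 to 6. With total counts as the scaling, 6 and 10 of the 14 periportal genes were called in numbers 4 to 6, against 37.3% and 45.9% of all genes. Genes of both ends of the lobule were among those lower in Ground pups 4 to 6.

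**Figure D4:**
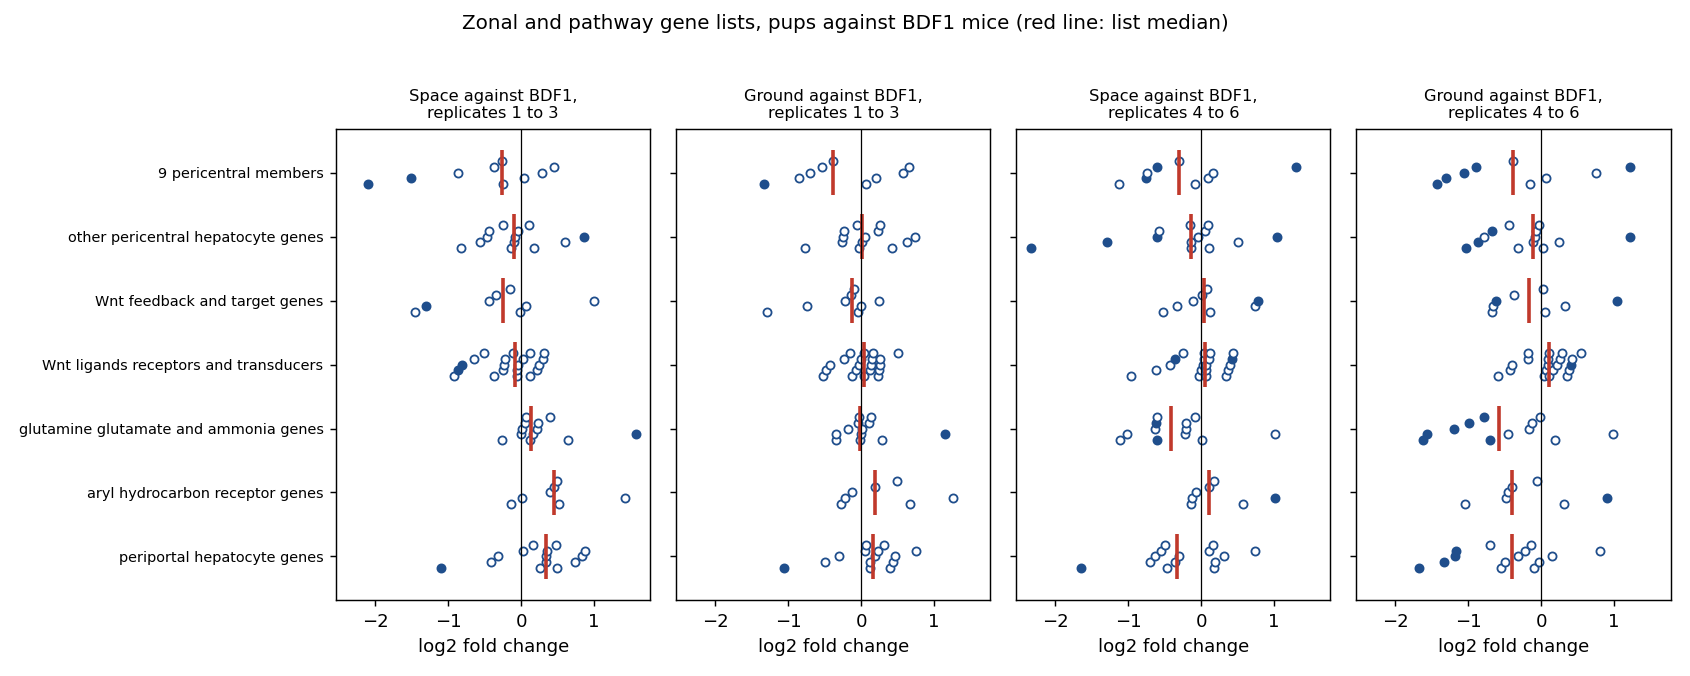
Log2 fold change in pups over BDF1 mice (x axis) of each tested gene of 7 lists (points, filled where called at an adjusted p under 0.05) with the list median (red line), in the 4 comparisons. The 9 pericentral genes have medians of -0.26, -0.39, -0.31 and -0.38, and the glutamine, glutamate and ammonia list has medians of -0.42 and -0.58 in numbers 4 to 6.

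Markers of the cell types in these samples were read beside the members. Of 7 hepatocyte markers, Alb (1.75 and 2.04) and Apoa1 (1.64 and 1.69) were higher in Space and Ground pups 4 to 6, and the sum of the 7 was 215494 to 377201 CPM in those pups against 73578 to 94944 CPM in BDF1 4 to 6. Alb made up most of that sum, at 193405 to 341737 CPM in the pups. The other 5 were not called: Tat was at -0.69 in Space and -0.39 in Ground pups, Apob at -0.06 and 0.42, Ttr at 0.32 and -0.18, Hnf4a at 0.28 and 0.34 and Serpina1c at 0.76 and 0.80. For numbers 1 to 3 the sum of the 7 was 73070 to 90860 CPM in pups and 58957 to 73059 CPM in BDF1 mice. None of the 6 central vein endothelial markers, Wnt2, Wnt9b and Rspo3 among them, was called in any of these comparisons, and their sum was 7.61 to 16.5 CPM over all libraries, with no marker at 0 throughout a group. Of 6 sinusoidal endothelial markers Stab2 was higher in Ground pups (0.90 and 1.03), while 3 of the 6 in numbers 1 to 3 and 4 of the 6 in numbers 4 to 6 had values below 0. Of 6 Kupffer cell markers Clec4f was higher (0.95) and of 6 stellate cell markers Lrat was lower (-1.07) in Space pups 4 to 6, and Dcn was higher (0.61) in Space pups 1 to 3. Of 5 tested cholangiocyte markers Sox9 was lower in Space pups 1 to 3 (-1.09) and Ground pups 4 to 6 (-0.97). The other 4 had values above 0 in that Space comparison, and all 5 were below 0 in that Ground comparison. None of 3 tested lymphocyte markers was called, and no haploid germ cell gene passed the filter. The summed markers of numbers 1 to 3 for sinusoidal cells were 72.4 to 85.9 CPM in Space, 88.6 to 157 in Ground and 108 to 124 in BDF1. For cholangiocytes they were 22.8 to 29.0, 20.9 to 37.0 and 24.1 to 30.8 CPM. For stellate cells they were 150 to 190, 130 to 176 and 103 to 124 CPM, so each pup lay above each BDF1 mouse. All 6 stellate markers had values above 0 in both kinds of pup of that set. The Kupffer sums were 62.4 to 85.6, 62.5 to 155 and 59.4 to 87.7 CPM. The summed markers of numbers 4 to 6 were 71.6 to 103 CPM in Space, 108 to 155 in Ground and 76.5 to 166 in BDF1 for sinusoidal cells, and 121 to 165, 108 to 167 and 59.2 to 129 CPM for Kupffer cells. The stellate sums were 130 to 211 CPM in the pups and 128 to 199 CPM in BDF1, the cholangiocyte sums 12.7 to 23.7 and 22.0 to 25.1, and the lymphocyte sums 2.42 to 4.51 and 1.77 to 2.55. Without the 3 libraries of lowest TMM factor, Cyp2c29 (-0.46), Nkd1 (-0.42), Tcf7 (0.83), Dvl1 (0.38), Ass1 (-0.83), Tiparp (0.68), Cyp2e1 (-0.86), Aldh4a1 (-0.39), Stab2 (0.82) and Sox9 (-0.74) were not called in Ground pups of numbers 4 to 6, where 1 pup was left. Cyp2e1 (-0.59), Tcf7 (0.79), Dvl1 (0.30), Tiparp (0.72), Clec4f (0.77) and Lrat (-0.71) were not called in Space pups of that set. In Ground pups Apoa1 was at 0.97, Hal at -0.70 and Slc13a3 at -1.42, and these were called. The part of other cell types in the members' differences was not tested.

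The genes whose pattern was most like Glul and Cyp1a2 were found over the 18 libraries on log2 CPM, after the mean of each group and replicate set was taken away. For Glul these were Mrps12 (r = 0.864), Cpt2 (0.856), Elmod2 (0.827), Etfdh (0.824) and Plin2 (0.816), and without that centring their r ran from -0.12 to 0.468. For Cyp1a2 they were Gsta3 (0.892), Tmem192 (0.871), Ugt2b1 (0.852), Ivd (0.820) and 4931406C07Rik (0.802), and without centring their r ran from 0.481 for Tmem192 to 0.929 for Gsta3. Among the 9 genes Oat and Axin2 were most alike (0.795), followed by Oat and Cyp1a2 (0.71) and by Lect2 and Axin2 (0.674), and Tbx3 and Lgr5 were least alike (-0.26). This order depended on the centring, since without it these first 3 pairs were at 0.541, 0.319 and 0.0768 and the most alike were Glul and Oat (0.796) and Lect2 and Oat (0.787). These values describe 18 libraries that share depth and composition within each library.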

How the data were processed

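Bulk RNA-seq of liver was available for 3 groups of 6 mice, made with a stranded mRNA kit per the labels. The submitters' processing notes name bcl2fastq 2.20, cutadapt 4.6, HISAT2 2.2.1, HTSeq 2.0.2 and mm10. How HTSeq was set for strand and for reads that fit more than 1 gene is not given in the sources used here. The deposited values are raw counts per gene, with no normalization by the authors. The table lists 32285 genes, and GENCODE M21 holds the identifiers of 32158. No count was seen for 10671 genes, and every row had a gene name.

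Genes that passed filterByExpr were TMM-scaled, and edgeR 4.0.16 under R 4.3.3 fitted 6 cells (3 groups by numbers 1 to 3 or 4 to 6, 12 residual degrees of freedom) with its two-sided quasi-likelihood F-test. Adjustment was Benjamini-Hochberg over 13356 genes, and an adjusted p under 0.05 was called. The SE is the absolute log2 fold change over the square root of F. Log2 CPM used a prior count of 2. Intervals are at 95%, and the limit of 3 counts covers counting error only. The p-values measure the spread between these animals, estimated with 1 dispersion trend over all 6 cells. Nothing in the labels says whether animals shared a litter or a recipient. The p-values therefore do not measure the spread between recipients or between GS cell cultures. Chi-square per gene was at least 9.78 for any pair of libraries within a group, so none was taken as a duplicate.

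The members and gene lists were chosen with earlier results of these data known. Genes named from the other lists were up to 4 with the largest change among those called in a comparison of groups within a set, with a mean of at least 1 CPM. Of 8 hepatocyte markers listed, 7 were in the table. Alternatives were DESeq2 1.42.0 and its size factors, total counts, limma 3.58.1 voom, other filters, removal of the 10 most abundant genes, each set fitted alone, replicate number as a block, and leaving out each library. The fits were tested on simulated data.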

Additional observations from a re-analysis of the deposited data

Results flagged for a closer look

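For 7 results the difference between pups and BDF1 mice changed between the replicate sets by the interaction test in edgeR (numbers 4 to 6 less numbers 1 to 3, log2 scale). For Space pups these were Tbx3 (3.40), Axin2 (1.68), Lect2 (-1.22) and Cyp1a2 (-0.89). For Ground pups they were Tbx3 (2.55), Lect2 (-1.27) and Cyp1a2 (-1.47). Both rest on the same BDF1 libraries. The replicate sets are also Xist classes, so the class and anything else that the numbers carry cannot be told apart.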

How the results depend on the processing

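All called members kept their direction under every alternative, and Tbx3 kept its call against BDF1 except without BDF1 replicate 2 (Ground pups, numbers 1 to 3) and without the 3 libraries of lowest TMM factor (Ground pups, numbers 4 to 6). Leaving out each library gave these ranges of members called: 1 to 2 for Space pups against BDF1 in numbers 1 to 3, 0 to 2 for Ground pups (0 without BDF1 replicate 2), 1 to 4 for Space pups in numbers 4 to 6 (1 without BDF1 replicate 4), 3 to 6 between the sets in Space pups and in BDF1 mice, and 1 to 4 for the Space interaction (1 without Space replicate 1 or BDF1 replicate 3). Over all genes these fits called 201 to 769, 35 to 384, 636 to 1940, 1867 to 3193 in Space pups and 1063 to 2206 in BDF1 mice, and 221 to 599, in the same order. For Ground pups in numbers 1 to 3, 3 members were called by DESeq2, 3 with each set fitted alone, 4 by limma voom and 2 without the 3 libraries of lowest TMM factor. For Space pups in numbers 4 to 6 it was 5 by DESeq2 and 6 with total counts. Limma voom called 1 between Space and Ground pups in numbers 1 to 3. Without the 3 libraries of lowest TMM factor, left out after seeing the data, 2 were called in Ground pups in numbers 4 to 6, where 1 pup was left. Without the 2 libraries with the most haploid germ cell counts, also left out after seeing the data, 2 were called between the sets in BDF1 mice and 1 in the Space interaction. The cause of these shifts was not tested.

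Libraries with the same number did not deviate together: over 18 pairs the correlation ran from -0.60 to 0.251, 3 pairs were over 0.1, and 5 libraries were closest to their own number. With replicate number as a block, 1 member was called between the sets in Space pups, 1 in BDF1 mice and 2 in the Space interaction, and the counts in the other comparisons stayed within 1.5 times. The r of Mrps12 and Cpt2 with Glul was -0.12 and -0.033 without centring.

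Counts over all genes also moved by over 1.5 times. In numbers 1 to 3, 620 genes were called for Space pups against BDF1, and 1002 by DESeq2, 2369 by limma voom, 1090 with each set fitted alone, 353 with the block, 1207 without the low TMM libraries and 183 without those with haploid germ cell counts. The same order for Ground pups was 257, then 619, 1097, 562, 92, 709 and 44, with 137 by total counts. Between Space and Ground pups it was 1, then 68, 483, 14, 0 and 28, with 0 by total counts and 7 with no filter. In numbers 4 to 6, 1594 were called for Space pups, 4980 by total counts, 2484 by limma voom, 570 with each set alone and 939 with the block. For Ground pups 2031 were called, 6136 by total counts, 895 with each set alone and 1067 without the low TMM libraries. Between Space and Ground pups 3 were called, 139 by DESeq2, 14 with no filter, 1 without the low TMM libraries and 0 by limma voom, with each set alone, with the block and without the haploid germ cell libraries. Between the sets the counts were 2929 in Space pups (1092 with the block), 2444 in Ground pups (995 with the block, 5987 by total counts, 1604 without the low TMM libraries) and 1952 in BDF1 mice (544 with the block, 3755 by limma voom, 1067 without the haploid germ cell libraries). The Space interaction had 426, with 849 by DESeq2, 1515 by limma voom, 230 with the block, 775 without the low TMM and 193 without the haploid germ cell libraries. The Ground interaction had 366, with 782 by DESeq2, 739 by limma voom, 145 with the block, 1499 by total counts and 113 without the haploid germ cell libraries. The Space against Ground interaction had 0, with 30 by DESeq2, 12 by limma voom and 8 with no filter.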
